A study of Mus musculus with 6 samples.

Results

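The 10 limb FGF signalling genes comprise 3 ligands (Fgf4, Fgf8 and Fgf10), 3 receptors (Fgfr1, Fgfr2 and Fgfr3) and 4 feedback inhibitors (Spry1, Spry2, Spry4 and Dusp6). Their accessible sites were taken as every ATAC-seq peak whose midpoint lay inside the gene or within 200 kb of its start, which gave 212 of the 61954 peaks measured. Of these, 52 lay at ligand genes, 63 at receptor genes and 97 at feedback inhibitor genes. ATAC-seq marks open chromatin by the places where the transposase Tn5 inserts adapters. The libraries came from distal forelimb buds of E11.5 mouse embryos on a mixed C57Bl/6 x 129 background, with 2 wild-type (WT) and 2 Hox13-/- embryos. Hox13-/- embryos lacked functional Hoxa13 and Hoxd13 through the Hoxa13 Str and Hoxd13 lacZ null alleles, in every cell of the embryo, and a library held 50000 cells, taken from both forelimb buds of 1 embryo. The comparison asks how accessibility at FGF genes differs when both HOX13 factors are missing.

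FGF signalling sustains limb outgrowth through a loop between 2 tissues. Fgf10 from the mesenchyme acts on FGF receptors of the overlying ectoderm, and Fgf4 and Fgf8 from the apical ectodermal ridge act back on receptors of the mesenchyme, where the signal runs through the ERK kinase cascade. Sprouty proteins and the phosphatase Dusp6 are switched on by this cascade and dampen it. The HOX13 proteins are transcription factors of the distal limb, where digits form.

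Values are regularized log (rLog) accessibilities on a log2 scale, with 1 value per peak and library, and every difference is Hox13-/- minus WT. A peak was called lower or higher when its adjusted p in limma was under 0.05. Each standard error (SE, after ±) and each interval of a difference uses limma's moderated variance, which draws on all peaks. They therefore do not show the replicate spread of the peak itself, which the printed library values give. Peaks are named by their gene and by the distance of their midpoint from its start, with plus for downstream and minus for upstream. Such a distance does not show which gene a site acts on, and for 117 of the 212 peaks the nearest start of a protein-coding gene was that of the FGF gene itself.

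Sequences are printed for 6 of the peaks that had the smallest p in a direction at their gene and kept the call in every alternative fit. The higher peak at Fgfr1 +26.2 kb also met this rule, and its sequence is not printed. All are 300 central bases of the peak or the whole peak if shorter, on the plus strand of mm10. Capitals mark matches to CNNATAAA or CNNGTAAA, the HOX motif letters searched on both strands. A single match fell in these 6 sequences, in the peak upstream of Fgfr2. Over whole peaks, the higher Dusp6 peak, of which 300 of 1057 bases are shown, held 2 matches to the first motif and 1 to the second, all outside the bases shown. Among other named peaks not printed, the higher peak at Fgf10 +32.0 kb and the lower peak at Fgfr1 -23.3 kb also held a match in their central bases, and the lower peaks at Fgf10 -1.1 kb, Spry1 +149.5 kb and Dusp6 +2.3 kb held none. The windows were chr19:45725746-45726045 for Fgf8, chr7:130279396-130279658 and chr7:130129414-130129713 for Fgfr2, chr3:37729273-37729572 for Spry1, chr14:105979940-105980239 for Spry2 and chr10:99299138-99299437 for Dusp6.
Fgf8 +17.0 kb: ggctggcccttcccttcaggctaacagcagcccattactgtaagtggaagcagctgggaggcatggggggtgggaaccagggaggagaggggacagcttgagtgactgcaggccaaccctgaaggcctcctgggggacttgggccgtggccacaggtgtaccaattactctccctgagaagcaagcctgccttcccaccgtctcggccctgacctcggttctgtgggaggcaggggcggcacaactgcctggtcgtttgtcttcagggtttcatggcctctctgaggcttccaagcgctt
Fgfr2 -13.3 kb: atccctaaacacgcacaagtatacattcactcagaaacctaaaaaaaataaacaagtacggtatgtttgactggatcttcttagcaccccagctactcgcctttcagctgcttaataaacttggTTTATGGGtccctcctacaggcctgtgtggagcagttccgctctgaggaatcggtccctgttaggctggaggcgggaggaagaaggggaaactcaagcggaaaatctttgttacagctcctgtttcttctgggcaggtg
Fgfr2 +136.6 kb: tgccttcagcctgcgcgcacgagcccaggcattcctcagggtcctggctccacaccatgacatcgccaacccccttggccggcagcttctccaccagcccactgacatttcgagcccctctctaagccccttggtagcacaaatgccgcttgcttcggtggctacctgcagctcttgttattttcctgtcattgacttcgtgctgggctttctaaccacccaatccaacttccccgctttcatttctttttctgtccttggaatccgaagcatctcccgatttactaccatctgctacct
Spry1 +89.5 kb: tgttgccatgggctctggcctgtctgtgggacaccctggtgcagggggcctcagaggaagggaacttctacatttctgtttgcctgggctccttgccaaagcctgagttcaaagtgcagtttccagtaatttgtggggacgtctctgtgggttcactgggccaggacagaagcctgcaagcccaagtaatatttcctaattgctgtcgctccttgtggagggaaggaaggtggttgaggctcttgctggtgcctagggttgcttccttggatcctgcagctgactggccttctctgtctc
Spry2 -83.3 kb: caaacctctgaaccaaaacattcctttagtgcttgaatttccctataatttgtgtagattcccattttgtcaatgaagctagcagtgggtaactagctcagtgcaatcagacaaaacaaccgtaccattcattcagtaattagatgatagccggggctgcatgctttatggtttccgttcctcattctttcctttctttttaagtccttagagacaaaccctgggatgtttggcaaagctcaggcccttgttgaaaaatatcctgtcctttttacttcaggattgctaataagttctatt
Dusp6 +36.1 kb: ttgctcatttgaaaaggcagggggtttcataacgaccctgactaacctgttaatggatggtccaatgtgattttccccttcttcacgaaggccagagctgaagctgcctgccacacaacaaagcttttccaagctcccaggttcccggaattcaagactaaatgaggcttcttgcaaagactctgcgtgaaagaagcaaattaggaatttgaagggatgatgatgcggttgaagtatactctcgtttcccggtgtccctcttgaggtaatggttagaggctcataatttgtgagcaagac

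Across all 10 genes, 10 peaks lost and 23 gained accessibility in Hox13-/-, which is 4.72% and 10.8% of the 212. Without any 1 library fewer peaks were called in each direction, here and over the whole table, as given for the FGF loci with the other settings. Of all 61954 peaks, 8.31% were lower and 11.4% were higher, so that the FGF loci stood under the background for lower peaks and near it for higher ones. Calls in either direction made up 15.6% at the FGF loci against 19.7% of all peaks. No FGF peak differed by more than 2-fold, a size reached by 0.537% of all peaks. Beyond 1.5-fold there were 7 FGF peaks, 1 lower and 6 higher, against 4.89% of all peaks in either direction. The median difference over the 212 peaks was 0.01, and over all peaks -0.01.

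By role, the calls were as follows. At ligand genes 2 peaks were lower and 5 higher, at receptor genes 5 were lower and 4 higher, and at feedback inhibitor genes 3 were lower and 14 higher. The share of higher peaks was thus 14.4% at the inhibitors, 9.62% at the ligands and 6.35% at the receptors, and whether the roles differ was not tested. This order depends on how genes are bounded. With the full gene records that had been planned first, 14 of 97 inhibitor peaks, 6 of 52 ligand peaks and 23 of 169 receptor peaks were higher. Leaving out 1 library gave 0 to 2 lower and 1 to 6 higher at ligands, 2 to 4 lower and 3 to 4 higher at receptors, and 0 to 2 lower and 8 to 11 higher at inhibitors. Peaks near gene starts and peaks away from them behaved differently over the whole table. Within 1 kb of a gene start, 8.88% of all peaks were lower and 0.659% higher, whereas further away 8.11% were lower and 15.0% higher. Among FGF peaks further than 1 kb from any start, 8 of 168 were lower and 22 higher, or 13.1%. For the feedback inhibitors alone, 13 of 80 such peaks were higher, or 16.2%, which is close to the 15.0% of all peaks at that distance. After centring the libraries on their medians, the calls became 17 lower and 21 higher, so that 55.3% of calls were higher instead of 69.7%, while over all peaks that share went from 57.8% to 46.9%.

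**Figure D1:**
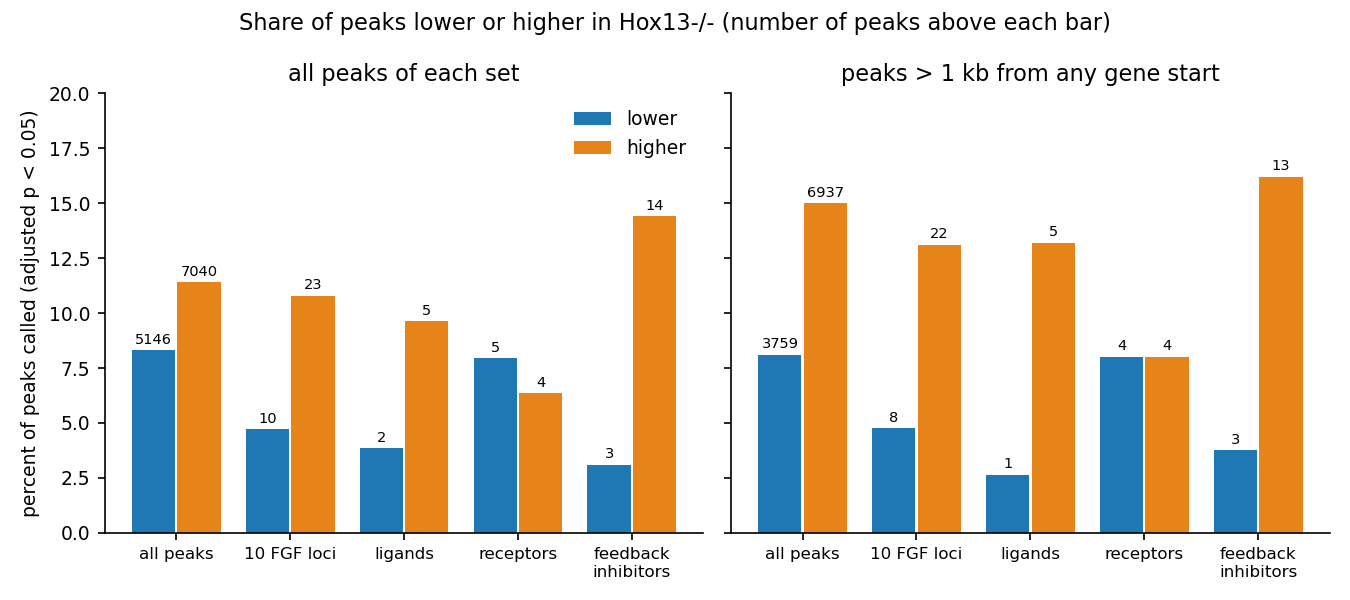
Percent of peaks called lower (blue) or higher (orange) in Hox13-/- at adjusted p < 0.05, for all peaks, the 10 FGF loci and each role, with the number of peaks above each bar. The left panel holds all peaks of each set and the right panel those further than 1 kb from any gene start, where the inhibitors' 16.2% higher stands beside 15.0% of all peaks.

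Between replicates, the root mean square difference over the 212 peaks was 0.167 in WT and 0.164 in Hox13-/-, against 0.249 between genotype means. Over all peaks these values were 0.180, 0.176 and 0.282. Replicate differences are between single libraries and carry more noise than a difference between means, so the sizes are not directly comparable. By gene, the median difference ran from -0.08 at Fgfr3 to 0.18 at Dusp6, while with quantile and cyclic loess scaling the lowest was that of Fgf8 (-0.079 and -0.071, beside -0.062 and -0.048 at Fgfr3). It was also above 0 at Fgf10 (0.04), Spry2 (0.08) and Spry4 (0.11), and below 0 at Fgf4 (-0.05), Fgf8 (-0.06), Fgfr2 (-0.05) and Spry1 (-0.03). At Fgfr1 it was -0.001, and it changed sign to 0.02 with cyclic loess scaling, while the sign at the other 9 genes held under all 3 other scalings. The sizes moved, from -0.019 to -0.083 at Fgfr2 and, with median centring, to -0.085 at Fgf4 and -0.095 at Fgf8. Other scalings took Fgf10 down to 0.010 and Spry2 to 0.038, and the SD between replicates of the gene's median level was larger than the size of the median difference at Spry2 (0.184), Fgf4 (0.199), Fgf8 (0.119), Fgfr3 (0.112), Fgf10 (0.053), Fgfr1 (0.087) and Fgfr2 (0.085). It was smaller at Dusp6 (0.034), Spry1 (0.016) and Spry4 (0.073), but at Spry4 the difference fell below that SD with quantile (0.066) and cyclic loess scaling (0.067). A median level is another quantity than a median of differences, so this SD does not measure the spread of the latter. Median levels themselves overlapped at Dusp6, with 5.52 and 5.48 in WT and 5.49 and 5.54 in Hox13-/-. They lay apart at Spry1 (4.35 and 4.39 against 4.27 and 4.27) and at Spry4 (4.89 and 4.76 against 4.97 and 5.02). The peak caller's record of each library was compared with the calls: of the 23 higher peaks 8 had been found in both Hox13-/- libraries and in neither WT library, beside 48.7% of all higher peaks in the table. Of the 10 lower peaks 3 had been found in both WT libraries and in neither Hox13-/- library, beside 24.3% of all lower peaks. These records come from the same reads as the differences, and the peaks' names refer to an input of another assay, so that the control used for peak calling is unclear.

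**Figure D2:**
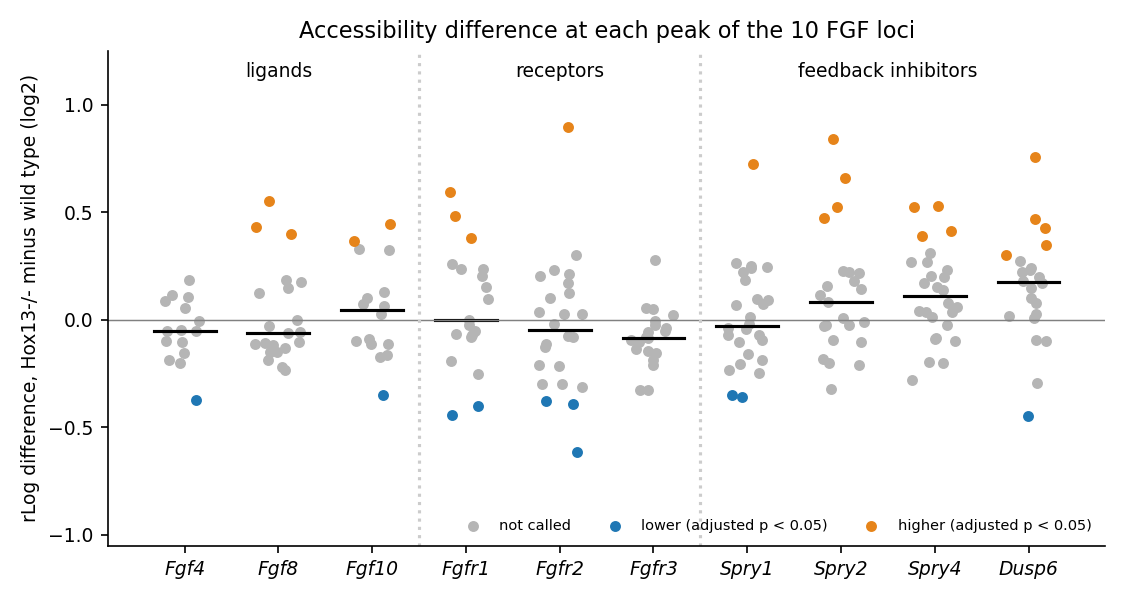
rLog difference (Hox13-/- minus WT, log2) of each of the 212 peaks by gene, with grey points not called, blue points lower and orange points higher at adjusted p < 0.05, and black bars for medians. Points are spread sideways for legibility, and Dusp6 has the highest median (0.18) while Fgfr3 has no coloured point.

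For each gene, the strongest peak whose span reached within 1 kb of its start was examined as the start peak. Fgf4 and Fgf8 had no peak reaching within 1 kb of their starts, with the nearest at 21.9 kb and 5.85 kb. Of the start peaks of the other 8 genes, 2 were lower, none was higher and 6 were not called. One of these 2, at Fgf10, had its midpoint just over 1 kb from the start and is counted among peaks further than 1 kb in the shares above. Among all peaks within 1 kb of a start, 8.88% were called lower, close to the 8.31% of all peaks, while their median difference was -0.12 and 22.6% of them had a difference above 0. That set holds every peak at a start, by midpoint, and is not limited to the strongest peak of each gene.

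The start peak of Fgfr1, the main receptor of the limb mesenchyme, lay over its 5' UTR exon at chr8:25518575-25519120. It measured 6.89 and 7.12 in WT and 6.63 and 6.58 in Hox13-/-, a difference of -0.40 ± 0.127 (moderated SE, n = 2 per genotype, adjusted p = 0.0127). Both Hox13-/- values lay under both WT values. The call was lost with a correction for GC content (adjusted p = 0.118) and without WT replicate 2 or either Hox13-/- replicate, where the adjusted p reached 0.200. At Fgf10 the strongest peak, 1.1 kb upstream at chr13:118713461-118713834, measured 5.34 and 5.36 in WT and 5.10 and 4.89 in Hox13-/-. Its difference was -0.35 ± 0.131 (adjusted p = 0.0395), and without either WT replicate or Hox13-/- replicate 2 it was not called, with an adjusted p of up to 0.336. A second peak 0.3 kb upstream of the same start, named after its values were seen, pointed the other way without being called, at 4.87 and 4.89 in WT and 5.18 and 5.24 in Hox13-/- (difference 0.33, adjusted p = 0.0583).

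The start peaks of Fgfr2, Fgfr3 and Spry2 had both Hox13-/- values under both WT values but were not called. At Fgfr2 the values were 7.22 and 7.06 in WT and 6.89 and 6.80 in Hox13-/- (difference -0.30, adjusted p = 0.0796). At Fgfr3 they were 6.52 and 6.64 against 6.24 and 6.27 (difference -0.32, adjusted p = 0.0552), and at Spry2 6.83 and 7.02 against 6.53 and 6.68 (difference -0.32, adjusted p = 0.0545). With libraries centred on their medians these 3 peaks were called, as given with the other settings. At Spry1 the groups overlapped, with 6.22 and 5.93 in WT and 5.72 and 5.94 in Hox13-/- (difference -0.25, adjusted p = 0.168). At Spry4 they overlapped as well, with 7.03 and 7.25 against 6.99 and 7.10 (difference -0.09, adjusted p = 0.656). The 4 libraries at the start of Dusp6 lay between 8.19 and 8.22, and the 95% interval of the difference ran from -0.23 to 0.25.

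Per kb of peak length, on the log2 scale, start peak levels over all libraries fell in the order Spry2 (8.37), Dusp6 (7.91), Fgfr2 (7.68), Fgfr1 (7.68), Spry1 (7.46), Spry4 (7.25), Fgfr3 (7.18) and Fgf10 (6.59). The place of Fgf10 rests on its peak 1.1 kb upstream, and its peak 0.3 kb upstream stood at 7.24 per kb. Fgfr2 and Fgfr1, and Spry4 and Fgfr3, were closer to each other than the WT standard deviation of either member of the pair. Spry2 stood above 94.0% of the 15620 peaks near gene starts.

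Further than 1 kb from any start, 6 of 38 ligand peaks were called (15.8%), beside 23.1% of all such peaks. Fgf8, the ridge ligand that is expressed throughout the ridge, starts at position 45742874 of chromosome 19 on the minus strand, and 3 of its 21 peaks were higher. The peak 17.0 kb downstream, in intergenic sequence and nearest to Fgf8, measured 5.97 and 6.00 in WT and 6.53 and 6.54 in Hox13-/-. The difference was 0.55 ± 0.129 (adjusted p = 0.000306), and the peak was found in all 4 libraries, with both Hox13-/- values above both WT values. The other 2 higher peaks, named after their values were seen, lay further downstream in introns of Fbxw4. The one at +114.0 kb, nearest to the start of Fbxw4, measured 4.86 and 5.08 in WT and 5.40 and 5.34 in Hox13-/- (difference 0.40, adjusted p = 0.0162), and was not called without WT replicate 1 or either Hox13-/- replicate (adjusted p up to 0.242). The one at +135.2 kb measured 4.32 and 4.58 against 4.97 and 4.79 (difference 0.43, adjusted p = 0.00882), and was not called without either replicate 1 (adjusted p up to 0.223).

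Fgf10, the mesenchymal ligand needed for limb bud formation, starts at position 118714699 of chromosome 13, and 2 of its 16 peaks were higher besides the lower one at its start. An intronic peak 32.0 kb into the gene, at chr13:118746437-118746869, measured 6.01 and 6.42 in WT and 6.68 and 6.64 in Hox13-/- (difference 0.45 ± 0.128, adjusted p = 0.00489). The 2 WT libraries were further apart there than the Hox13-/- libraries, and without either replicate 1 the peak was not called (adjusted p up to 0.318). A peak over the 3' UTR exon at +77.3 kb, named after its values were seen, measured 3.81 and 4.19 against 4.39 and 4.34 (difference 0.37, adjusted p = 0.0276). It was not called without WT replicate 1 or either Hox13-/- replicate, with an adjusted p of up to 0.534.

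Fgf4, a ligand of the posterior ridge that starts at position 144861386 of chromosome 7, had 15 peaks in its window, and the start of another gene was nearest to all of them. One was lower, at +78.4 kb over the 5' UTR exon of Ccnd1, which encodes cyclin D1. It measured 5.39 and 5.47 in WT and 5.12 and 4.99 in Hox13-/- (difference -0.38 ± 0.131, adjusted p = 0.0262). The call was lost with the GC correction (adjusted p = 0.139) and without either WT replicate or Hox13-/- replicate 2 (adjusted p up to 0.208).

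The receptor genes held both the most reduced and the most increased of the 212 peaks, and both lay at Fgfr2. This gene, whose isoforms receive Fgf10 in ectoderm and ridge signals in mesenchyme, starts at position 130266191 of chromosome 7 on the minus strand and had 3 lower and 1 higher of 24 peaks. The peak 13.3 kb upstream measured 5.22 and 5.27 in WT and 4.72 and 4.53 in Hox13-/-, a difference of -0.62 ± 0.131 (adjusted p = 5.77e-05). It was found in both WT libraries and in neither Hox13-/- library, and it is the peak printed above with a HOX match, TTTATGGG on the plus strand. A neighbour at -22.7 kb, named after its values were seen, measured 4.90 and 5.13 against 4.54 and 4.73 (difference -0.38, adjusted p = 0.0250), and was not called without WT replicate 2 or Hox13-/- replicate 1 (adjusted p up to 0.290). Another lower peak at -164.2 kb, named likewise, lay in an intron of Ate1 at 4.30 and 4.49 against 4.03 and 3.97 (difference -0.39, adjusted p = 0.0166). It was not called without WT replicate 2 or either Hox13-/- replicate (adjusted p up to 0.208).

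On the other side of Fgfr2, an intergenic peak 136.6 kb downstream of the start, beyond the end of the gene, was higher. It measured 6.07 and 6.00 in WT and 6.81 and 7.04 in Hox13-/-, a difference of 0.89 ± 0.128 (adjusted p = 3.14e-10) or 1.86-fold. The adjusted p stayed at 6.41e-05 or below whichever library was left out. The Fgfr2 start was the nearest to this peak as well. Calls in both directions were also present in the windows of Fgf10, Fgfr1, Spry1 and Dusp6. How often windows of other genes hold both was not counted.

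Fgfr1 starts at position 25518759 of chromosome 8 and also had calls in both directions, with 2 of 19 peaks lower and 3 higher. An intronic peak at +26.2 kb measured 5.84 and 5.87 in WT and 6.31 and 6.59 in Hox13-/- (difference 0.59 ± 0.129, adjusted p = 8.82e-05). Both Hox13-/- values lay above both WT values, and the call held without each library. The lower peak away from the start, at -23.3 kb, measured 4.26 and 4.10 against 3.75 and 3.72 (difference -0.44 ± 0.127, adjusted p = 0.00461) and was not called without WT replicate 1 (adjusted p = 0.107). The remaining 2 higher peaks, at -53.1 kb and -149.8 kb and named after their values were seen, differed by 0.38 (adjusted p = 0.0199) and 0.48 (adjusted p = 0.00208). The call of the former was lost without any 1 library (adjusted p up to 0.119) and that of the latter without Hox13-/- replicate 1 (adjusted p = 0.118). Fgfr3, a receptor known for its part in cartilage growth, starts at position 33721724 of chromosome 5 and had no called peak among 20, with 2 lower and 1 higher at an unadjusted p under 0.05.

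**Figure D3:**
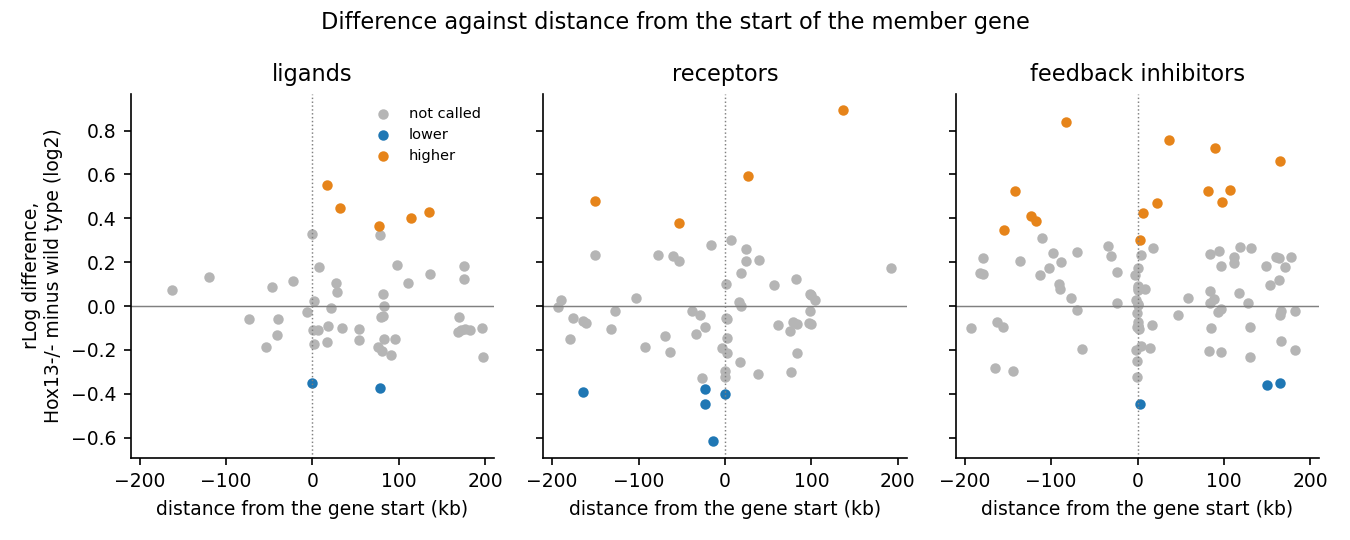
rLog difference (Hox13-/- minus WT, log2) of each peak against the distance of its midpoint from the start of the FGF gene (kb, negative upstream), for ligands, receptors and feedback inhibitors. Higher peaks (orange) of the inhibitors lie on both sides of the starts out to +164.3 kb, and the lowest and highest points of the receptors are the Fgfr2 peaks at -13.3 kb and +136.6 kb.

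Among the feedback inhibitors, Spry2, an intracellular antagonist of receptor tyrosine kinase signalling, had 4 of 23 peaks higher and none lower. It starts at position 105896819 of chromosome 14 on the minus strand in a gene-poor stretch, and its start was the nearest for 22 of the 23 peaks. At -83.3 kb (chr14:105979817-105980362) the values were 5.74 and 5.68 in WT and 6.48 and 6.62 in Hox13-/-, a difference of 0.84 ± 0.129 (adjusted p = 6.33e-09). That peak was found in both Hox13-/- libraries and in neither WT library. The other 3 higher peaks, named after their values were seen, lay downstream of the gene. At +164.3 kb the values were 6.53 and 6.18 in WT and 7.03 and 7.00 in Hox13-/- (difference 0.66, adjusted p = 6.65e-06). At +81.1 kb they were 6.37 and 6.54 against 6.95 and 7.01 (difference 0.52, adjusted p = 0.000597), and at +97.3 kb 5.43 and 5.29 against 5.76 and 5.91 (difference 0.47, adjusted p = 0.00298). Genotypes did not overlap at any of the 4, and the last alone lost its call when a library was left out (WT replicate 2 or Hox13-/- replicate 2, adjusted p up to 0.0815).

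Dusp6, the phosphatase that inactivates ERK and a common readout of FGF signalling, starts at position 99263231 of chromosome 10 and had 5 of 22 peaks higher and 1 lower. The peak at +36.1 kb (chr10:99298759-99299815), intergenic and nearest to Dusp6, measured 7.78 and 7.76 in WT and 8.54 and 8.52 in Hox13-/-. Its difference of 0.76 ± 0.122 (adjusted p = 4.22e-08) was many times the distance between replicates. Next to the gene, the peak at +6.1 kb measured 8.12 and 8.19 against 8.50 and 8.65 (difference 0.42, adjusted p = 0.00481) and the one at +22.8 kb 5.37 and 5.39 against 5.90 and 5.80 (difference 0.47, adjusted p = 0.00329). Both were named after their values were seen, and lost their calls without Hox13-/- replicate 2 (adjusted p = 0.133) and without Hox13-/- replicate 1 (adjusted p = 0.0641), respectively. The lower peak lay in an intron at +2.3 kb, at 5.71 and 5.57 in WT and 5.10 and 5.29 in Hox13-/- (difference -0.45 ± 0.131, adjusted p = 0.00569), and was not called without either replicate 1 (adjusted p up to 0.134). The last 2 higher peaks, at +2.9 kb over a coding exon and at -155.0 kb over the 5' UTR exon of Galnt4, were named after their values were seen. They differed by 0.30 (adjusted p = 0.0437) and 0.35 (adjusted p = 0.0361). The former was not called without either WT replicate or Hox13-/- replicate 2 (adjusted p up to 0.464), and the latter without any 1 library (adjusted p up to 0.273).

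Spry4, a Sprouty gene on chromosome 18 that is induced by FGF, had 4 of 26 peaks higher and none lower, none of them nearest to the Spry4 start. The peak at +106.5 kb, nearest to the start of Ndfip1, measured 6.28 and 6.10 in WT and 6.87 and 6.57 in Hox13-/- (difference 0.53 ± 0.128, adjusted p = 0.000553), and was not called without Hox13-/- replicate 1 (adjusted p = 0.0999). The other 3, named after their values were seen, lay in introns of Arhgap26. At -141.3 kb the values were 5.35 and 5.28 in WT and 5.93 and 5.76 in Hox13-/- (difference 0.53, adjusted p = 0.000773), and the call held without each library. At -122.7 kb and -117.3 kb the differences were 0.41 (adjusted p = 0.0121) and 0.39 (adjusted p = 0.0198), and both calls were lost without any 1 library (adjusted p up to 0.0996 and 0.0958) and with the GC correction (adjusted p = 0.0526 and 0.0904).

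Spry1, another Sprouty gene, starts at position 37639947 of chromosome 3 and had 1 of 26 peaks higher and 2 lower, all in intergenic sequence nearest to the start of Gm5148. The higher peak at +89.5 kb measured 5.92 and 6.15 in WT and 6.78 and 6.73 in Hox13-/-, a difference of 0.72 ± 0.128 (adjusted p = 7.61e-07). The lower peak at +149.5 kb measured 4.47 and 4.50 against 4.11 and 4.14 (difference -0.36 ± 0.130, adjusted p = 0.0331). The one at +165.3 kb, named after its values were seen, measured 4.31 and 4.11 against 3.89 and 3.84 (difference -0.35, adjusted p = 0.0357). The first was called without each library, the second lost its call without any 1 library (adjusted p up to 0.146), and the third without WT replicate 1 or either Hox13-/- replicate (adjusted p up to 0.331).

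Of the 33 called peaks, 10 kept both call and direction in every alternative fit, with another scaling, variance model, filter, GC correction or replicate block, and without each library. They were 1 peak at Fgf8, 1 at Fgfr1, 2 at Fgfr2, 1 at Spry1, 3 at Spry2, 1 at Spry4 and 1 at Dusp6, and 9 of the 10 were higher in Hox13-/-. The same tally over all peaks is not given here, so that 9 of 10 is not shown to be particular to the FGF loci. In the main fit 69.7% of FGF calls and 57.8% of all calls were higher. In all 33 called peaks, values of the genotypes did not overlap, which the call itself favours, and they did not overlap at 54.7% of all FGF peaks and 59.2% of all peaks in the table.

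**Figure D4:**
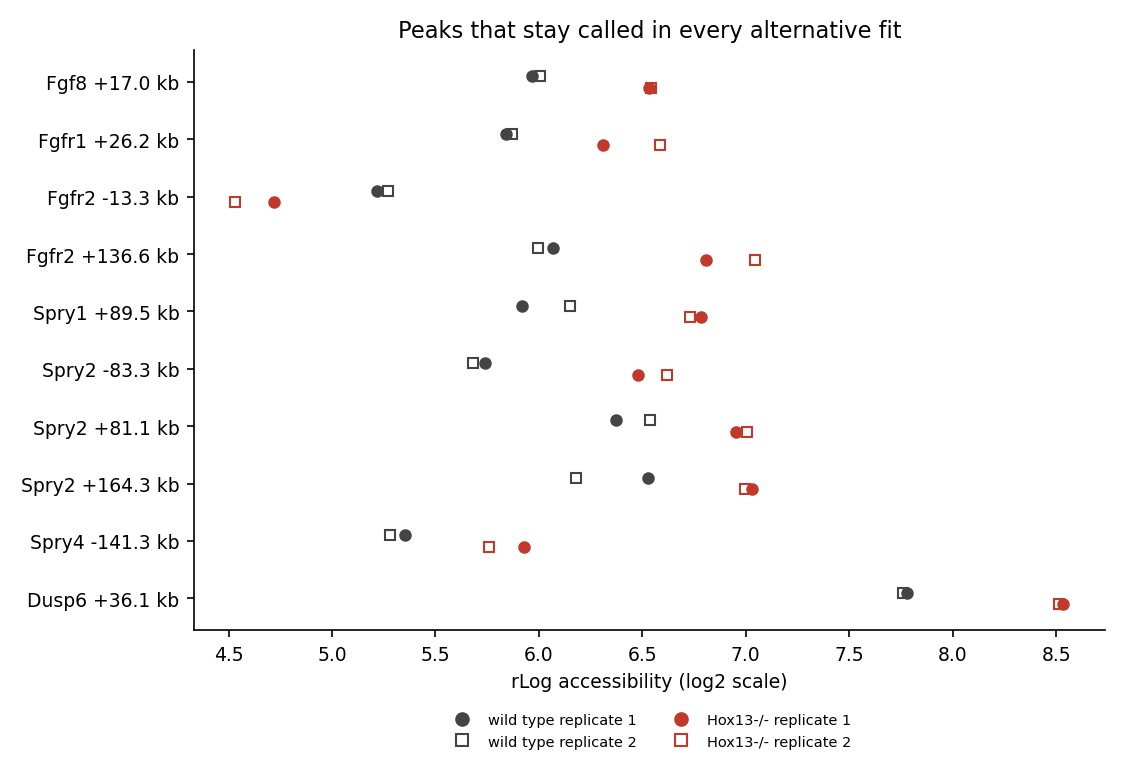
rLog accessibility (log2 scale, horizontal axis) in each library of the 10 called peaks that kept their call in every alternative fit, with WT in dark grey, Hox13-/- in red, circles for replicate 1 and squares for replicate 2. In every row the genotypes are apart, and the Fgfr2 peak at -13.3 kb alone has its Hox13-/- values on the left.

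A HOX motif match was present in 22.6% of the 212 peaks and in 22.2% of all peaks. Of the FGF peaks that were lower, 4 of 10 had one, and of those that were higher 6 of 23, beside 40.4% of all lower and 31.9% of all higher peaks. In a fixed window of 300 bases around the midpoint, the counts were 5 of 10 lower and 4 of 23 higher FGF peaks, beside 41.5% of all lower, 24.2% of all higher and 23.2% of all peaks. The letters CCGGAAG, searched on both strands as an ETS motif since ETS factors act downstream of ERK, were in 3.77% of FGF peaks and 6.25% of all peaks. A match is a description of the letters and shows no binding.

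The rest of the pathway was counted at 25 further FGF genes, with 445 peaks by the same window, 16 of which also lay in a window of the 10 genes. Lower peaks numbered 37 (8.31%) and higher peaks 32 (7.19%), beside 8.31% lower and 11.4% higher of all peaks. Both counts fell when any 1 library was left out, as given with the other settings. By role, 10 lower and 9 higher of 110 peaks lay at ligands, 3 and 1 of 29 at receptors or co-receptors, 12 and 4 of 99 at signal transduction genes, 7 and 14 of 140 at feedback inhibitors, and 5 and 4 of 67 at targets. The largest difference in each direction, at peaks named after their values were seen, was beyond 2-fold. At Spred2, which encodes an inhibitor of the ERK cascade, the peak 150.3 kb upstream measured 5.80 and 6.03 in WT and 4.52 and 4.50 in Hox13-/- (difference -1.41 ± 0.131, adjusted p = 8.21e-24). At Fgf18, a ligand of the developing skeleton, the peak 34.7 kb downstream measured 6.67 and 6.67 against 7.66 and 7.70 (difference 1.01 ± 0.126, adjusted p = 2.33e-13). Both exceeded every difference at the 10 genes in size, and both calls held in every alternative fit.

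Start peaks were found at 21 of these 25 genes, with 4 lower and none higher. Among all peaks near gene starts, not limited to the strongest of each gene, 8.88% were lower and 0.659% higher. At Fgf7 the values were 6.16 and 6.05 in WT and 5.54 and 5.45 in Hox13-/- (difference -0.61, adjusted p = 5.81e-05), and the call held in every alternative fit. The other 3, Fgfr4 (difference -0.39, adjusted p = 0.0191), Fgfrl1 (difference -0.43, adjusted p = 0.00718) and Frs3 (difference -0.38, adjusted p = 0.0224), were not called with the GC correction (adjusted p = 0.187, 0.100 and 0.194). They also lost their calls without either replicate 1, and Fgfr4 and Frs3 without Hox13-/- replicate 2 (adjusted p up to 0.619, 0.266 and 0.147).

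Bulk tissue was measured, so that fewer cells with an open site and a less open site per cell cannot be told apart. The labelled tissue was checked at start peaks of marker genes. Limb mesenchyme markers had one at 5 of 5 genes, with mean values of 6.58 and 6.62 in WT and 6.55 and 6.53 in Hox13-/-, led by Prrx1, and Twist1 alone was called (lower, -0.40, adjusted p = 0.0143, but 0.111 with the GC correction, 0.109 without WT replicate 2 and 0.418 without Hox13-/- replicate 2). Distal limb markers had one at 4 of 4. Markers of ectoderm and apical ridge, the cells that make Fgf4 and Fgf8, had one at 4 of 10 genes, with means of 3.36 and 3.17 in WT and 3.18 and 3.15 in Hox13-/-, led by Cdh1. None was found at Trp63, Sp6, Krt5, Krt14, Krt8 or En1, and no ectoderm marker was called. Endothelial markers had one at 2 of 4 genes, led by Kdr (means 6.24 and 6.15 against 6.28 and 6.09), proximal limb markers at 2 of 3, led by Meis1 (3.71 and 3.54 against 3.57 and 3.61), and muscle precursor markers at Myod1 alone (4.12 and 4.30 against 4.31 and 4.20), with none called. Blood markers had none, and Gata1 lies on the X chromosome, while the table covers the 19 autosomes. The part of these cell types in the FGF differences was not tested.

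The inactivated genes themselves stayed accessible. The peak over the Hoxa13 start measured 5.71 and 5.95 in WT and 5.66 and 5.84 in Hox13-/- (difference -0.08, adjusted p = 0.708). The peak over the Hoxd13 start was lower, at 4.06 and 4.17 against 3.70 and 3.50 (difference -0.52, adjusted p = 0.000608, or 0.0556 without Hox13-/- replicate 2), and the strongest peak within 1 kb of it, at 4.35 and 4.34 against 3.99 and 4.17, was not called (difference -0.26, adjusted p = 0.137). Accessibility of a start does not test the null alleles, so the genotype rests on the labels.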

How the data were processed

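ATAC-seq of 4 distal forelimb libraries was used, and 2 proximal libraries were not analysed here. Per the study's methods and the submitters' processing notes, the authors aligned paired reads to mm10 with Bowtie2 2.3.1, called peaks per library with MACS2 2.1.1.20160309, merged them with HOMER 4.9.1 and computed rLog values with DESeq2. The handling of duplicates, blacklisted regions and the Tn5 offset is not given in the sources used here. The authors deposited rLog values on a log2 scale, scaled for library size and shrunken, so small signals show smaller differences and the read depth behind each value is unknown. Their fold change, p-value and adjusted p-value columns were deposited too and were not used.

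rLog values of all 61954 peaks were fitted with limma 3.58.1 in R 4.3.3 (genotype term, variance trend, two-sided, Benjamini-Hochberg over all peaks). The moderated SE was 0.129 at Fgf8 +17.0 kb, where SDs between replicates were 0.025 in WT and 0.006 in Hox13-/-. At Spry2 +160.2 kb it was also 0.129, with SDs of 0.330 and 0.241. Replicate numbers mark no stated shared litter or day, and 2 against 2 samples cannot give a permutation p under 0.333. On simulated data over 61954 peaks, 59 of 100 peaks changed by 0.5 and 100 of 100 changed by 1 were called, with 11 of 61754 unchanged peaks. No other peaks were changed in the simulation, whereas 19.7% were called in the data. The Benjamini-Hochberg cut was therefore stricter there, and these rates do not carry over to this comparison. Gene starts and bodies came from GENCODE M21 as the APPRIS principal start and the CCDS transcripts. The full gene records had been planned, but the Fgfr2 record spans 2961 kb through a weakly supported transcript, and the change was made after calls under those records had been seen. For each gene, the strongest peak with its span within 1 kb of the start, and the called peak with the smallest p in each direction, were named by rule. Any further peak was chosen by its value, as stated beside it. The genes, lists and motifs were chosen with earlier results of these data known. Sequence was read from GRCm38 (mm10) with pysam 0.24.0. A marker gene and a peak sequence are not reported here. Alternatives were other scalings, variance models, filters, a GC correction, a replicate block, thresholds, windows and leaving out each library.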

Additional observations from a re-analysis of the deposited data

How the results depend on the processing

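Direction held in all fits at every called FGF peak. Of the 33 calls, 24 held in all fits with 4 libraries, and 10 held in those and without each library in turn. Counts are given as lower and higher peaks, for all 10 genes and then for ligands, receptors and inhibitors, and where so named for the 25 further pathway genes. As reported they were 10 and 23 (2 and 5, 5 and 4, 3 and 14), and 37 and 32 at the further genes. Median centring gave 17 and 21, with 10 lower at receptors and 5 at inhibitors. Quantile scaling gave 8 lower at receptors, the filter to the upper 75% of peaks 1 lower at ligands, the GC correction 1 lower at ligands and 5 at inhibitors, and the replicate block with the GC correction 1 lower at ligands. Beyond 1.5-fold there were 1 and 6 (0 and 0, 1 and 2, 0 and 4; further genes 4 and 9), and beyond 2-fold 0 and 0 in all, in ligands, in receptors and in inhibitors (further genes 1 and 1). At an adjusted p under 0.01 there were 3 lower in all (0, 2 and 1 by role; further genes 16) and 3 higher at ligands. A window of 100 kb gave 13 higher (3, 2 and 8), with 1 lower at inhibitors. A window of 50 kb gave 6 and 8 (1 and 3, 1 higher at receptors, 1 and 4). Peaks nearest to the FGF gene's own start gave 6 and 15 (1 and 3 at ligands, 1 and 8 at inhibitors). The full gene records had been planned first, and the reported definition replaced them after their calls had been seen. Kept as an alternative, the records take in 318 peaks and gave 16 and 43, with 11 and 23 of 169 peaks at receptors. Leaving out 1 library gave 4 to 5 lower and 14 to 18 higher peaks (0 to 2 and 1 to 6 at ligands, 2 to 4 and 3 to 4 at receptors, 0 to 2 and 8 to 11 at inhibitors, 16 to 24 and 20 to 22 at the further genes). The median difference at Spry1 was -0.063 with median centring and -0.050 with cyclic loess, and that at Dusp6 was 0.14 with median centring. Start peaks called only under other settings were those of Fgfr2 with median centring (adjusted p = 0.0444), Fgfr3 with median centring, quantile scaling, no trend and the filter (0.0297 to 0.0476), and Spry2 with median centring, no trend, the filter and without WT replicate 1 (0.0292 to 0.0492). The uncalled start peak of Dusp6 changed sign with median centring (-0.028), the GC correction with and without the replicate block (-0.0028) and without WT replicate 1 (-0.012, within a range of up to 0.026 without 1 library), and that of Spry4 without WT replicate 2 (0.020, from -0.20 without another library). Calls away from the starts that were lost with 4 libraries, beside those given above, were Fgf8 +114.0 kb, Fgf10 +77.3 kb and Dusp6 +2.9 kb with the GC correction (adjusted p = 0.0578, 0.0722 and 0.178), Dusp6 +2.9 kb also with median centring (0.0798), no trend (0.0717) and the replicate block (0.0503), Dusp6 -155.0 kb with median centring (0.0621), Spry4 -117.3 kb with quantile scaling (0.0552) and Fgf10 -1.1 kb with the filter (0.0513). The causes of these changes were not tested.

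Embryos of the same replicate number showed no shared deviation: over all peaks, deviations of replicate 1 from its genotype mean had a correlation of -0.0106 between genotypes. Whether such embryos shared a litter or day cannot be told from this value. With the replicate block 10 peaks were lower and 22 higher, against 10 and 23 without it. At 2 libraries per genotype, and with shrunken values of unknown depth, differences near 0.5 on the log2 scale can be missed, at a rate that the simulation does not give.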
